A study of Homo sapiens with 6 samples.

Results

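The genes described here encode the proteins of the cytosolic ribosome, the particle that translates messenger RNA. Members were chosen by symbol: a probe set that the platform annotation assigns to 1 gene whose symbol begins with RPL or RPS and a number, with RPLP1 and RPLP2. Pseudogenes, the RPS6K kinases, RPS19BP1 and antisense or divergent transcripts were left out, which removed 23 of 84 matching symbols. The 61 members, of 19775 genes with a probe set, comprised 39 genes of the large and 22 of the small subunit. Each was read by its brightest probe set, the one of highest mean log2 signal over the 6 arrays. Of a list of 80 human ribosomal proteins, 52 were members, and the other 9 members were paralogs, close relatives of such genes. A further 14 ribosomal protein genes are named only together with small RNA genes or pseudogenes and are described apart. RPLP0, RPSA and 9 others were not analysed here.

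The study gave cells a precursor of miR-21, a microRNA that lowers messages carrying matching sites. The level of miR-21 that this reached was not read here. Cells of SKOV3, a human ovarian cancer line in long use that the labels class as high-grade serous, received a miR21 precursor at 5 nM (3 arrays). The comparison group received a negative control precursor (3 arrays), and RNA was taken after 24 h in both groups. Replicate numbers 1, 2 and 3 occur in both groups, and each number gives a difference of its own, the log2 signal with miR21 minus that with control. Separate cultures are not named in the labels, so the p-values rest on a spread of arrays that could be purely technical. The arrays read pooled RNA, so a message lost from some cells and one lowered in all of them cannot be told apart. The array number limits the precision of every value.

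Among the markers of the line, ERBB2, which encodes a growth factor receptor, gave signals of 14600 to 31000, and KRT8, KRT18, EPCAM and PAX8 were also above the filter. WT1 (signal 41.6 to 71.5) and MUC16 (3.12 to 27.3), both frequent in serous carcinoma, were below it. Of 9 listed markers of immune, endothelial and stromal cells, 8 had a probe set naming that gene alone (all but CD68), and 2 of these were above the filter (COL1A1 and PECAM1). The summed signal of the 8 was 1623, 324 and 388 on control arrays 1, 2 and 3, and 1508, 306 and 228 with miR21. The median signal of all probe sets was likewise higher in number 1 (125.4 and 117.1) than elsewhere (55.18 to 61.85). The part of this offset in the results was not tested.

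A ribosome joins a large subunit, which forms peptide bonds, to a small subunit, which reads the message, and nearly every protein is present in a single copy. Cells therefore make the proteins of both subunits in matched amounts. Most of their messages begin with a C followed by an unbroken run of C or T, the 5′ terminal oligopyrimidine (TOP) tract. Through it the kinase complex mTORC1 and the RNA-binding protein LARP1 control how well these messages are translated and how long they are kept. The present arrays measure message signal and not translation.

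The transfected microRNA and the start sites of some members are shown to make the agent and the shared feature visible. The sequence of mature hsa-miR-21-5p is from RefSeq (GRCh38.p14, chr17:59841273-59841294, plus strand), with its seed, bases 2 to 8, in capitals.
hsa-miR-21-5p: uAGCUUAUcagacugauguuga

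Start sites were read from RefSeq's promoter table (GRCh38.p14), which held 53 members. The windows below run from 15 bases before the annotated start through the first 15 transcribed bases, on the gene's strand, and the tract that begins at the start is in capitals. RPS6, RPS27, RPL22 and RPL36A stand for genes of the standard ribosome, and the remaining 4 are paralogs.
RPS6 (chr9:19380222-19380251, minus strand): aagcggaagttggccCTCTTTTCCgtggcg
RPS27 (chr1:153990747-153990776, plus strand): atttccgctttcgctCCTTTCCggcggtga
RPS27L (chr15:63157463-63157492, minus strand): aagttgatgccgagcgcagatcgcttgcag
RPL22 (chr1:6199581-6199610, minus strand): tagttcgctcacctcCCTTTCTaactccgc
RPL22L1 (chr3:170870181-170870210, minus strand): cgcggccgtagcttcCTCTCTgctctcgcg
RPL36A (chrX:101390996-101391025, plus strand): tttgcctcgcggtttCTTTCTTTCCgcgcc
RPL36AL (chr14:49620612-49620641, minus strand): ctgtttcttccctttCCTgttaggcgagag
RPL7L1 (chr6:42879601-42879630, plus strand): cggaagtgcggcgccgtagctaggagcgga

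A tract of at least 5 bases beginning with C at the annotated start stood in 33 of 46 standard members (71.7%). Among 27305 RefSeq promoter windows the share was 4.04%. It was 19 of 27 in the large and 14 of 19 in the small subunit, so both carried it at a like rate. When such a tract could begin up to 5 bases away from the annotated start, 40 of 46 members had one (87%), against 21.1% of all windows. Only the gene's own strand was searched, since the tract is part of the message. Of 7 paralogs in the table, 2 had the tract at the start, RPL22L1 and RPS4Y1. Of 69 mitochondrial ribosomal protein genes, 5 had it (7.25%). A match describes the letters and shows no binding.

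No ribosomal protein gene passed the test between miR21 and control. Of the 61 members, 58 lay above the signal filter (37 large, 21 small), and limma called 0 of them at an adjusted p under 0.05. The same fit called 0 of 12206 genes (0%). The limma fit blocked on replicate number called 4 genes of 12206 (0.0328%), none of them a member. At an unadjusted p under 0.05 the fit without the block held 1 member, RPL39L, where it held 2.44% of all genes. The block fit held 2 members, RPL39L and RPL22L1, where it held 20.1% of all genes. Both are paralogs, and 0 of the 52 standard genes reached an unadjusted p under 0.05 in either fit. The 3 members below the filter, RPL3L, RPL10L and RPS4Y1, are paralogs too and were not tested.

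The median log2 difference of the 58 genes was -0.04, beside -0.01 for all genes tested, and the members lay close together. The members' quartiles were -0.09 and 0.03, whereas those of all genes tested were -0.26 and 0.23. The sign of the members' median was not stable. After quantile normalization of the arrays it was 0.02, beside 0.01 for all genes tested. After centring on the array median it was 0.06, beside 0.09 for all genes, so it stayed below theirs as on the deposited scale. The members' median was 0.15 without control replicate 3 and 0.12 without miR21 replicate 1, but -0.20 without control replicate 1 and -0.15 without miR21 replicate 2. Leaving out 1 array also leaves the replicate numbers, which differ in level, unmatched between the groups. The large subunit had a median of -0.03 and the small subunit of -0.04, a difference of 0.01. Within replicate numbers 1, 2 and 3 the large minus small difference was 0.02, 0.02 and 0.05. This closeness held for the brightest probe sets. With the mean of all probe sets the large subunit median minus the small subunit median was 0.08, and with unmarked probe sets 0.09. It was -0.02 without control replicate 1 and 0.05 without control replicate 3 or miR21 replicate 1. For the standard genes the number 1 medians were -0.07 (large) and -0.22 (small) with the mean of all probe sets, and the number 3 medians -0.28 and -0.13 with unmarked ones.

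The single numbers did not give the flat picture of their mean. In number 1 the members' median was -0.05, in number 2 it was 0.30 and in number 3 it was -0.37. With miR21, 20 of 58 members were higher in number 1, where 47.9% of all genes tested were. In number 2, 53 of 58 were higher, beside 50.0% of all genes, and in number 3 only 5 of 58 were, beside 50.0%. Signals that were higher in number 2 and lower in number 3 were found for 51 of 58 members (32 of 37 large, 19 of 21 small) and for 24.7% of all genes. Of the members, 50 had a mean log2 signal above 13. Among 566 other genes above 13, 367 were higher in number 2 and 457 were lower in number 3. The large subunit medians were -0.04, 0.32 and -0.35 in numbers 1, 2 and 3, and those of the small subunit -0.06, 0.30 and -0.41. Number 2 and number 3 therefore offset each other in the mean.

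**Figure D1:**
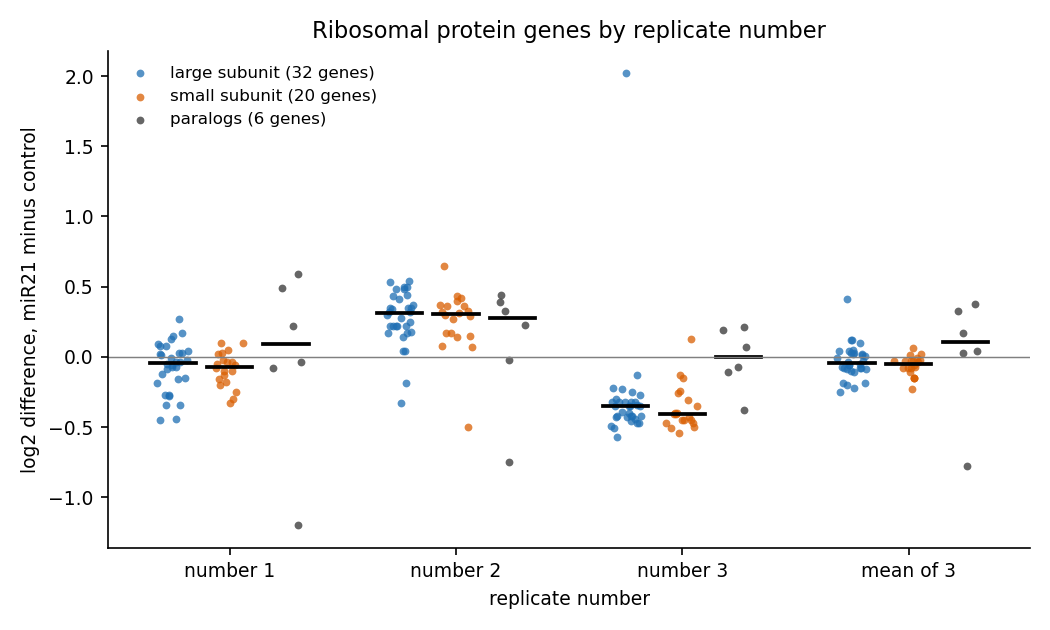
Log2 difference, miR21 minus control (vertical axis), of the 58 genes above the filter in replicate numbers 1 to 3 and their mean (horizontal axis). Each point is 1 gene and black bars are medians; on the deposited scale both subunits sit above 0 in number 2 and below 0 in number 3, a shift that quantile normalization removed, while RPLP2 stands apart at 2.02 in number 3.

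These opposite shifts were absent after quantile normalization and present after centring on the array median. After quantile normalization the medians of the 52 standard genes were 0.02, 0.04 and 0.03 in numbers 1, 2 and 3, against -0.05, 0.30 and -0.40 on the deposited scale, and 14 of 52 were higher in number 2 and lower in number 3. Quantile normalization gives every array the same set of values, which fixes the level of its brightest probe sets and so takes out a shift that they share. The part of scaling in the shift was not tested. With arrays centred on their median the 3 values were 0.05, 0.37 and -0.27, and 47 of 52 were higher in number 2 and lower in number 3. Centring moved the median of all genes to 0.07, 0.07 and 0.13 in the 3 numbers.

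The standard genes lie at the top of the signal range, and other bright genes moved the same way by less. On each array 48 or 49 of the 52 were among the brightest 1% of probe sets. Other genes with a mean log2 signal between 13 and 14 (417 genes) had medians of -0.02, 0.09 and -0.12 in numbers 1, 2 and 3. For the 149 other genes above 14 these were -0.08, 0.20 and -0.26. Below a log2 signal of 13 the medians lay between -0.06 and 0.03 in numbers 2 and 3. A dependence on signal level thus moves with the shift of the ribosomal genes, and its part in that shift was not tested.

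Expression on single arrays showed which samples set the pattern. RPS6, the small subunit protein that S6 kinases phosphorylate, gave signals of 24884, 32762 and 47021 on control arrays 1, 2 and 3, and of 26591, 44238 and 36920 with miR21. Control replicate 3 was the highest array and control replicate 1 the lowest, and the groups overlapped. Its log2 difference was 0.06 (SE 0.33, limma adjusted p = 0.9999). RPS3, a small subunit protein at the channel where the message enters, had 24502, 34277 and 53114 with control and 21322, 43921 and 37680 with miR21. Here too the highest value came from control replicate 3, and the difference of -0.11 (SE 0.39) lay within the spread of the arrays.

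In the large subunit, RPL3, which lies near the site of peptide bond formation, gave 20740, 27644 and 32926 with control and 22769, 32233 and 28234 with miR21. The groups overlapped and the difference was 0.04 (SE 0.28). RPL11, which binds the 5S ribosomal RNA and, outside ribosomes, the p53 regulator MDM2, gave 30231, 22272 and 33680 with control and 25020, 28702 and 27444 with miR21. Its difference was -0.07 (SE 0.25), and control arrays 2 and 3 enclosed all miR21 values. RPLP1, a protein of the stalk that recruits elongation factors, gave 32710, 30838 and 50575 with control and 27044, 41782 and 36863 with miR21. Control replicate 3 was again the highest array (difference -0.10, SE 0.30).

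**Figure D2:**
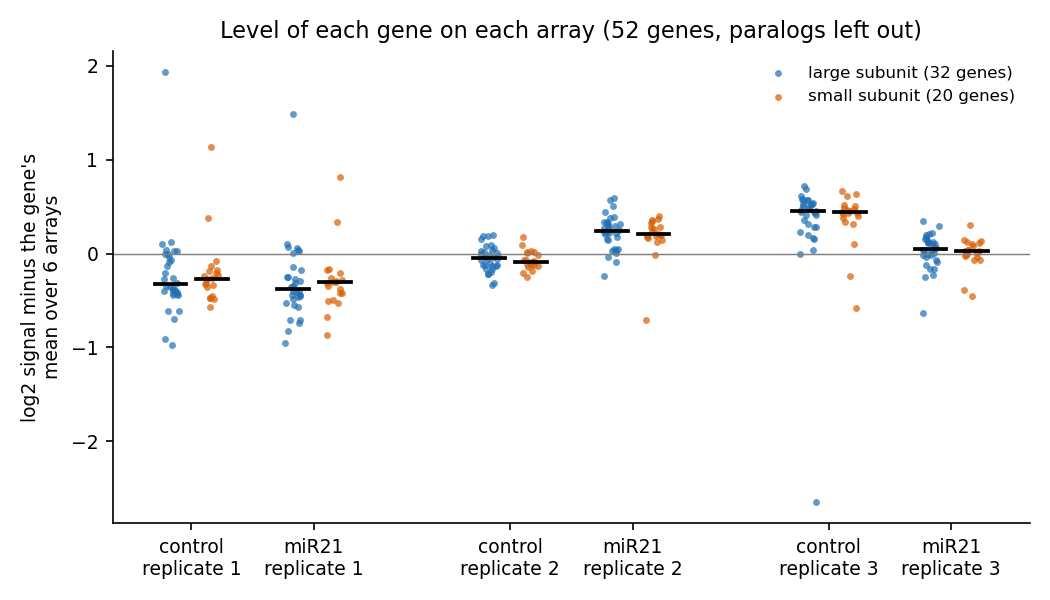
Log2 signal of each of the 52 standard genes minus its own mean over the 6 arrays (vertical axis), by array (horizontal axis, control beside miR21 of the same number). Points are genes and black bars are medians; both subunits are lowest in number 1 and highest on control replicate 3, and the points far above the rest in number 1 are RPLP2 and RPS25.

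Relative to each gene's own mean, the median of the 52 standard genes was -0.29, -0.07 and 0.45 on control arrays 1, 2 and 3. With miR21 it was -0.34, 0.23 and 0.04. Control replicate 3 had 48 of the 52 genes above their mean and control replicate 1 had 8. The subunits followed each other on every array, since their medians differed by at most 0.07 (miR21 replicate 1). Each gene's range between the 3 numbers, taken as means of both groups, had a median of 0.59. The size of the mean difference between groups had a median of 0.07. In all 52 genes the range was larger than this difference, as in 88.7% of all genes tested. A range over 3 values tends to exceed a difference between 2, so these unlike measures do not rank numbers against groups.

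Members differed in how far the 3 numbers lay apart. RPS15A, a small subunit protein, differed by -0.04, 0.65 and -0.54 in numbers 1, 2 and 3, and RPL41, a very short protein of the large subunit, by -0.07, 0.48 and -0.49. RPS15A signals were 26739, 30614 and 57970 with control and 25936, 48125 and 39777 with miR21, so control replicate 3 exceeded every other array. The SD of its 3 differences was 0.60. By contrast RPS27 differed by -0.04, 0.08 and -0.15 (SD 0.11) and RPL36 by 0.08, 0.17 and -0.13 (SD 0.15).

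RPS27, whose protein sits in the small subunit, gave 33299, 24110 and 21738 with control and 32351, 25401 and 19581 with miR21. RPS25, a small subunit protein needed for some internal ribosome entry sites, had 18455, 7251 and 5596 with control and 14722, 5129 and 6140 with miR21. In both genes the arrays of number 1 were high in both groups, unlike those of RPS6 or RPS3.

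Of the 52 standard genes, 49 were higher in number 2 and lower in number 3, and the exceptions were RPS25, RPLP2 and RPL36A. RPS25 differed by -0.33, -0.50 and 0.13. RPLP2, the partner of RPLP1 in the stalk, was read by a dim probe set with signals of 708, 198 and 29.7 with control and 519, 157 and 120 with miR21, and its difference of 2.02 in number 3 was over 1 log2 unit. A further probe set names RPLP2 together with the small nucleolar RNA gene SNORA52. It gave 30217, 41889 and 49459 with control and 25393, 46535 and 42007 with miR21, with differences of -0.25, 0.15 and -0.24, and so was higher in number 2 and lower in number 3 as most members were. RPL36A was also dim (103, 120 and 126 with control, 90.3, 105 and 105 with miR21) and differed by -0.22 (SE 0.43), with overlapping groups. RPL27A, at 402 to 677, was the remaining dim gene, and a probe set that names it with SNORA3A gave signals of 33272 to 46289.

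At the edges of the standard genes, the lowest mean differences belonged to RPL14 (-0.25), RPS25 (-0.23), RPL36A (-0.22) and RPL34 (-0.20). RPL14 signals were 12907, 19456 and 25094 with control and 9542, 19937 and 19665 with miR21, so the groups overlapped. RPL34 gave 19148, 33329 and 48176 with control and 15077, 39630 and 33725 with miR21. On the upper side stood RPLP2 (0.41) and RPL12 (0.12), a protein at the base of the stalk, with 14961, 28931 and 45272 under control and 16839, 41867 and 35691 under miR21. The values of RPL12 and RPL34 differed over 2 times within each group, and the groups of both overlapped.

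Aside from the dim RPLP2, the differences farthest from 0 belonged to paralogs. RPL39L, a relative of RPL39 known for its expression in testis, was the only member whose groups did not overlap. Its signals were 3135, 3086 and 2799 with control and 1361, 1834 and 2153 with miR21, so each miR21 array lay below each control array. The log2 difference was -0.78 (SE 0.29), a ratio of 0.583 to control, and it did not pass limma (adjusted p = 0.9999, and adjusted p = 0.124 with the replicate block). Differences within numbers 1, 2 and 3 were -1.20, -0.75 and -0.38. Exact permutation of the 6 arrays, two-sided, gave p = 0.1, the lowest that 3 against 3 can give. Groups without overlap were found on the lower side for 3.27% of all genes and for 1 of 58 members, and on the higher side for 3.38% of all genes and 0 members. RPL39 itself differed by -0.15, 0.28 and -0.42, with signals of 34659, 38199 and 53254 under control and 31341, 46316 and 39913 under miR21.

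RPL22L1, a relative of RPL22, had signals of 1732, 3663 and 2768 with control and 2432, 4984 and 3209 with miR21. It was higher with miR21 within each number (0.49, 0.44 and 0.21) although the groups overlapped. Its mean difference of 0.38 had an SE of 0.40 without and 0.14 with the block (limma adjusted p = 0.9999 and 0.194). RPL22, the gene it resembles, differed by -0.06, 0.22 and -0.40, so the 2 genes ran apart in numbers 1 and 3. RPL7L1, a relative of RPL7, gave 5288, 7933 and 10406 with control and 7957, 9984 and 10933 with miR21, and was higher in all 3 numbers by 0.59, 0.33 and 0.07 (mean 0.33, SE 0.32; limma adjusted p = 0.266 with the block). Only RPL22L1 and RPL7L1 among the 58 members were higher in all 3 numbers, where 20.3% of all genes were. Only RPL39L and RPL36A were lower in all 3, where 20.9% of all genes were.

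**Figure D3:**
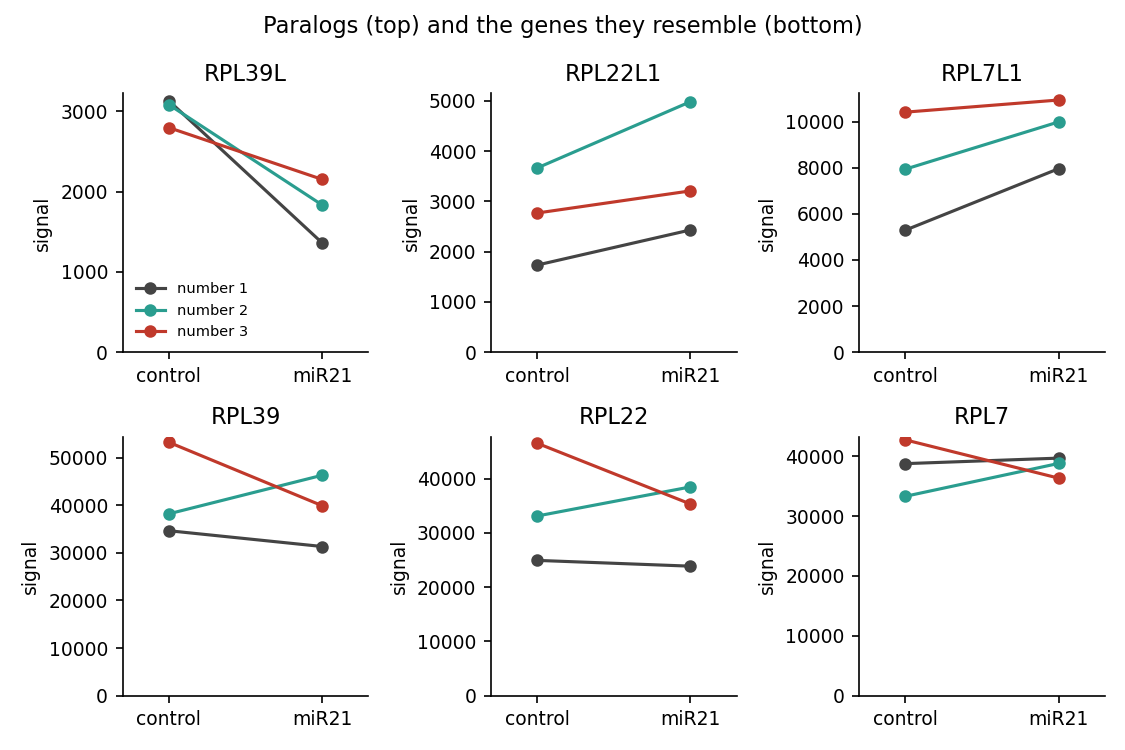
Signal (vertical axis, linear) on the control and miR21 arrays, joined by replicate number, for 3 paralogs (top row) and the genes they resemble (bottom row). RPL39L is lower and RPL22L1 and RPL7L1 are higher with miR21 within every number, while RPL39, RPL22 and RPL7 are higher in number 2 and lower in number 3; none passed the test.

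The remaining paralogs above the filter stayed nearer to 0. RPL26L1, a close copy of RPL26, gave 3424, 7919 and 10408 with control and 3992, 10372 and 9622 with miR21, a difference of 0.17 (SE 0.53). RPL36AL, which resembles RPL36A, gave 5519, 6992 and 8442 with control and 5227, 8216 and 8027 with miR21, a difference of 0.03 (SE 0.31). RPS27L, a relative of RPS27 known as a p53 target gene, gave 3268, 3245 and 2653 with control and 3181, 3208 and 3024 with miR21, a difference of 0.04 (SE 0.25). All 3 had overlapping groups. A change of over 1 log2 unit in any number was seen in 2 of 58 members, RPL39L and RPLP2, and in 19.1% of all genes tested.

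Without both arrays of number 3, limma with the block called 4 members, beside 32.8% of all genes. They were RPL39L (-0.98, adjusted p = 2.04e-07), RPL22L1 (0.47, 0.0053), RPL7L1 (0.46, 0.00656) and RPS25 (-0.41, 0.0176). Without number 1 or number 2 it called 0 members, where it called 59 and 0 genes in all. Each of these fits uses 2 pairs, which leaves 1 residual degree of freedom per gene, and was added after the values were seen. Limma adds degrees of freedom drawn from the variance of all genes. The median in use was 51.2 without number 3, 33.6 without number 1 and 6.71 without number 2, and the adjusted p-values above rest on the first of these. The members' share, 4 of 58, was below that of all genes.

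Different probe sets of a gene mostly showed the same pattern if bright. The 58 genes had 108 probe sets above the filter, and 67 of the 70 with a log2 signal above 13 were higher in number 2 and lower in number 3. Among the 38 dimmer ones, 7 were. The 3 brightest probe sets of RPL22 had mean differences of -0.14, -0.08 and -0.10, and its sets of log2 signal 13.51 and 12.89 had 0.05 and -0.27. The widest disagreement was in RPL18, a large subunit protein, where the brightest set differed by 0.03 (signals 26210 to 41493) and a dim one by -1.36 (signals 34.4 to 228). For RPL31, a protein at the exit of the peptide tunnel, the brightest set differed by -0.19 and another by -1.48, with signals of 1643, 1449 and 344 under control and 418, 273 and 330 under miR21. RPS21 had -0.15 in its brightest set and -1.33 in another, at 1790, 8629 and 6280 under control and 504, 2865 and 4235 under miR21. In RPL37 the dimmer set farthest from the brightest was higher with miR21, by 1.73, 1.53 and 0.10 (mean 1.12), beside a mean of 0.0043 in the brightest. Of 30 genes with over 1 probe set above the filter, 15 had differences of both signs.

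**Figure D4:**
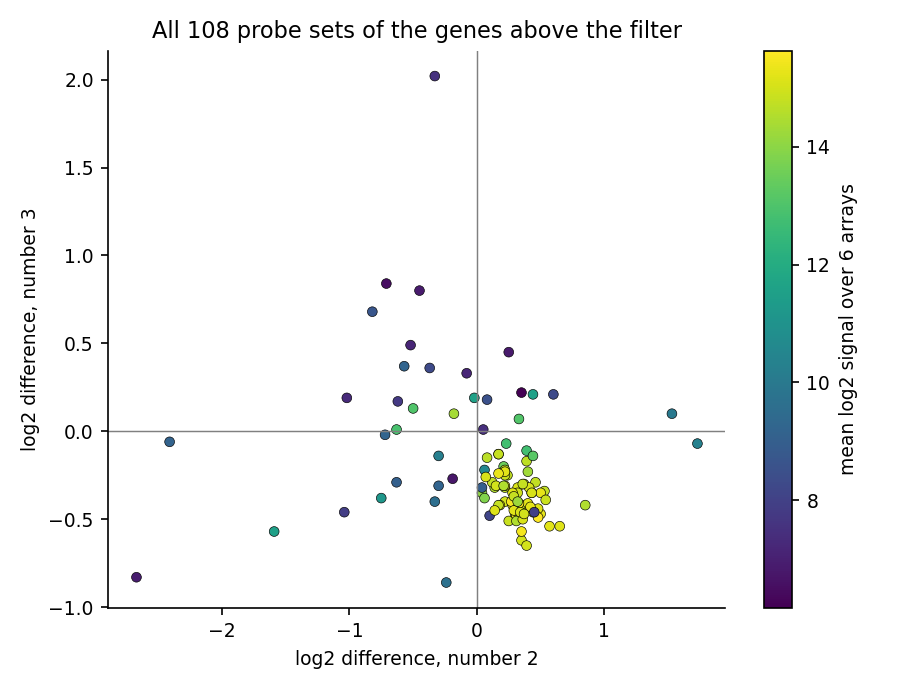
Log2 difference, miR21 minus control, in replicate number 2 (horizontal axis) and number 3 (vertical axis) for the 108 probe sets above the filter, coloured by mean log2 signal. Bright probe sets gather at the lower right, and the dim ones scatter to all sides.

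Probe set identity limits what a value can be assigned to, because ribosomal protein genes have many processed pseudogenes of near-identical sequence. The chosen probe set of 16 of the 58 genes carries the platform's x mark (probes that may bind unrelated sequences) and that of 29 the s mark (probes shared by several transcripts). The other 13 carry neither. With only unmarked probe sets, 25 standard genes remained, with medians of -0.13, 0.22 and -0.27 in numbers 1, 2 and 3. In that set 13 of 25 were higher in number 2 and lower in number 3, against 49 of 52 with the brightest probe set, but this rule also moves many genes to dimmer probe sets. Of 35 unmarked probe sets above the filter, all 12 with a log2 signal above 13 were higher in number 2 and lower in number 3, and 3 of the 23 dimmer ones were.

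The 14 ribosomal protein genes named only beside small RNA genes or pseudogenes gave values near those of the members. Their medians were -0.02, 0.24 and -0.33 in numbers 1, 2 and 3, and all 14 were higher in number 2 and 0 were higher in number 3. RPL5, which binds the 5S ribosomal RNA together with RPL11, differed by 0.05, 0.03 and -0.22, and RPL23 by -0.25, 0.06 and -0.26. Of 3 ribosomal proteins whose symbols fall outside the naming rule, FAU was measured, a fusion gene that yields a small subunit protein. FAU gave 22065, 32964 and 46881 with control and 20479, 42169 and 36874 with miR21, with control replicate 3 highest as for RPS6.

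Values spread more widely in the lists of translation factors and mitochondrial ribosomal proteins. Of 41 genes of translation with a probe set, 39 lay above the filter, mostly initiation, elongation and release factors, with TPT1, PABPC1 and ABCE1. These 39 had medians of 0.07, 0.18 and -0.16 in numbers 1, 2 and 3. The 75 proteins of the mitochondrial ribosome had medians of 0.08, 0.17 and -0.06. Over the mean of the numbers the SD between genes was 0.11 for the 52 standard genes, 0.33 for the translation list and 0.25 for the mitochondrial proteins, beside 0.46 for all genes. The lists were not matched for signal level. Among bright genes of the translation list, EEF1A1 differed by -0.16, 0.38 and -0.58 in numbers 1, 2 and 3 and TPT1 by -0.04, 0.46 and -0.52. EEF2, also bright, differed by 0.02, 0.09 and -0.07. Whether these lists differ from the cytosolic ribosome was not tested. In the block fit, which gave 20.1% of all genes an unadjusted p under 0.05, this held for 6 of 39 genes of the translation list (4 higher, 2 lower) and for 14 of 75 mitochondrial proteins (8 higher, 6 lower), none of which passed adjustment. Both shares are below that of all genes.

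**Figure D5:**
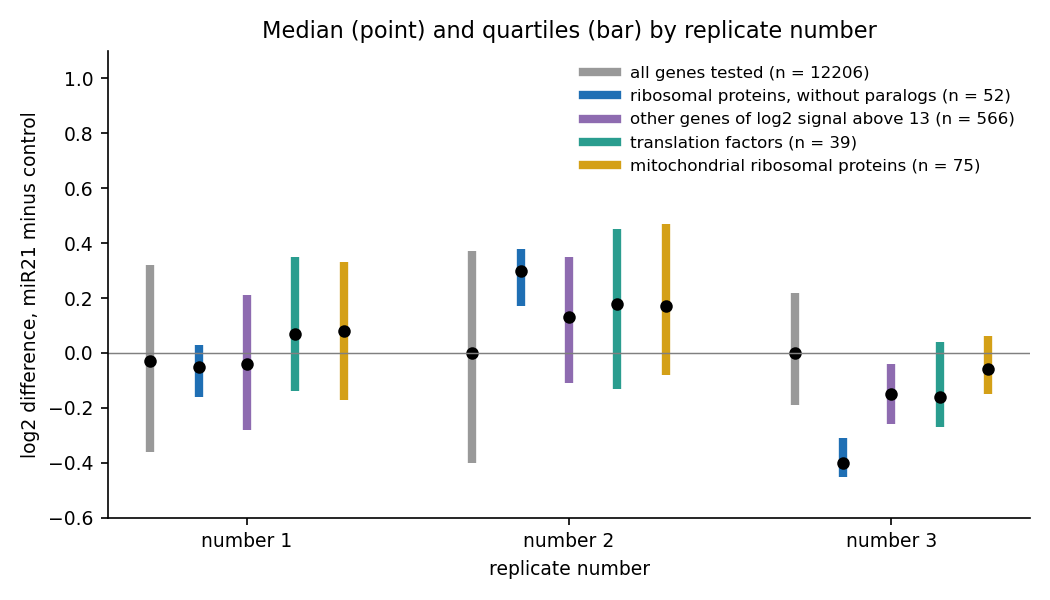
Median (point) and quartiles (bar) of the log2 difference, miR21 minus control (vertical axis), by replicate number (horizontal axis) for 5 gene lists. The 52 ribosomal protein genes have the shortest bars in each number and lie, on the deposited scale, at 0.30 in number 2 and -0.40 in number 3.

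Single factors differed more than any standard ribosomal gene of bright signal. ETF1, the release factor that reads stop codons, gave 3649, 6136 and 6294 with control and 11723, 16750 and 10600 with miR21, without overlap (log2 difference 1.29, SE 0.33; limma adjusted p = 0.9999, and adjusted p = 0.0711 with the block). EIF3J, a subunit of an initiation factor, differed by 0.59, also without overlap. In the mitochondrial set MRPL19 differed by 0.66 and MRPS18C by 0.46, both with overlapping groups.

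Of 19 genes of mTORC1 and TOP message control, 0 passed limma and the block fit gave 7 an unadjusted p under 0.05 (5 higher, 2 lower), beside 20.1% of all genes. The genes of lowest p were DDIT4, an inhibitor of mTORC1, and DEPTOR, an mTOR-binding inhibitor. DDIT4 differed by 2.46, 2.21 and 0.81 in numbers 1, 2 and 3 (mean 1.83, SE 0.75), with overlapping groups (limma adjusted p = 0.073 with the block). DEPTOR differed by 1.15 (SE 0.55). Among other inhibitors of the pathway, SESN2 differed by 2.44, 2.95 and -0.06 in the 3 numbers, TSC1 by -0.25 and AKT1S1 by -0.18 on average. LARP1 differed by 0.04 on average, MTOR by 0.29, RPTOR by -0.12, MLST8 by -0.06, RHEB by -0.10 and TSC2 by 0.12. EIF4EBP1 differed by 1.44, 1.65 and -0.05 in the 3 numbers. DEPTOR signals were 592, 422 and 238 with control and 1503, 1011 and 430 with miR21, and the highest control value exceeded the lowest miR21 value. RPS6KB1, which encodes a kinase of RPS6, gave 1107, 1049 and 792 with control and 1823, 1604 and 1189 with miR21, a difference of 0.64 (SE 0.31) without overlap. RPS6KA1, of another kinase family that acts on RPS6, was lower within each number (-1.29, -1.06 and -0.33). Both kinases were chosen after their values were seen. RPS6 itself differed by 0.06.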

How the data were processed

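Gene expression was measured in 6 samples of SKOV3 cells on U133 Plus 2.0 arrays. Each deposited value is a linear intensity per probe set, made with MAS5 per the submitters' processing notes, which give no settings here. With 2% of values trimmed from either end, every array averages 500, which shows a scaling done by the authors. Of 54675 probe sets, 41091 name 1 gene. Intensities were turned into log2 values without a pseudocount, and the brightest probe set stood for a gene. The filter kept 12206 of 19775 genes, those at or above log2 6.03 (intensity 65.5), the median over all probe sets.

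All 12206 genes entered one limma fit (version 3.58.1, R 4.3.3) by lmFit and trended eBayes. P-values were adjusted by Benjamini-Hochberg with a threshold of 0.05, and SE is limma's. Single genes also had exact permutation tests. The limma fits were also run on simulated data with known changes to check the code, and their power is not given here. Replicate numbers come from the sample titles. Deviations of same-numbered arrays from their group means correlated by 0.899, 0.638 and 0.635, so the fit with the number as a block is given where it changes a count. Members and lists were chosen with earlier results of these data known, and lists are described without tests. Named members were those of set roles, all paralogs above the filter, and the 5 highest, 5 lowest, 5 steadiest and 3 most variable differences; others serve as examples chosen after their values were seen. Start sites come from RefSeq tables.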

Additional observations from a re-analysis of the deposited data

How the results depend on the processing

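Alternatives changed the scaling (quantile or median), the pseudocount (16), the signal filter, limma's trend and array weights, the probe set rule, the replicate block and, 1 at a time, the arrays used. None of them called a member, while the replicate block called 4 genes in all. A fit chosen after seeing the data, with the block and both arrays of number 3 left out, called 4 members. The large minus small difference, 0.01, was 0.08 with the mean of all probe sets and 0.09 with unmarked probe sets, and between -0.02 and 0.05 with 1 array left out. The median of all members ranged from -0.20 to 0.15 with 1 array left out, which leaves the replicate numbers unmatched between the groups. These values stayed within the SD of the 3 numbers (0.336), so the sign of the median is not settled. Of 24 named genes, 4 kept their sign in every setting run: RPL39L, RPL22L1, RPL7L1 and RPL36A. The cause of these changes was not tested.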
